A study of Mus musculus with 6 samples.

Results

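Tumour necrosis factor (TNF), its receptors and the core of the NF-kB pathway were followed in RNA from mouse brain. The labels give the tissue as the paraventricular nucleus, a hypothalamic centre of autonomic and hormonal control. The genes were chosen by name from the deposited table: Tnf, Tnfrsf1a, Tnfrsf1b, Tnfrsf21, Ngfr, Nfkb1, Nfkbia, Rela, Traf2 and Traf3. All 10 were found, each in 1 row of the 51826 genes listed. The study compared 3 libraries from wild-type mice (WT) with 3 from mice lacking ADAM17 in glutamatergic neurons (KO). Each genotype had 2 libraries from males, replicates 1 and 2, and 1 from a female, replicate F1. Values of single libraries are always given in the order 1, 2, F1. The labels name no treatment, although the series title speaks of angiotensin II, and they give no age, strain or Cre driver. Cells other than glutamatergic neurons keep Adam17 by the design. Nothing in the labels says that the libraries came from separate animals, so p-values measure only the spread between these samples.

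TNF is made as a membrane-bound trimer, and ADAM17, a protease of the cell surface, cuts it free. The same protease cuts the extracellular parts of both TNF receptors and of the p75 neurotrophin receptor. A bound receptor gathers TRAF adaptor proteins, which switch on the IKK kinases. These mark the inhibitor IkB-alpha for destruction, and the NF-kB dimer of RelA and p50 then enters the nucleus and turns on target genes, the inhibitor's own gene among them. In brain, microglia are the best known source of TNF, and neurons, glia and vessel cells carry its receptors. Transcript counts do not measure the cleavage of a protein.

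NF-kB dimers bind a DNA element known as the kappaB consensus. It was searched on both strands in the 250 bases before the start of each gene as given by RefSeq (GRCm38.p6). There 9 of the 10 genes matched by symbol (all but Nfkb1). The RefSeq start can differ from the gene coordinates given below. The window of Tnfrsf1a lies inside its gene span, and those of Ngfr and Rela lie partly inside theirs. Of all 32851 promoter windows of this length, 7.3% held a match. Among the 9 it was found in the windows of Nfkbia and Traf3, which are shown because they hold the element through which the pathway can act on its own genes. A match is a description of the letters, not of a bound site. Both lie on chromosome 12, Nfkbia at chr12:55492648-55492897 on the minus strand and Traf3 at chr12:111166120-111166369 on the plus strand. They are written 5′ to 3′ along the gene, and the capitals mark the match:
Nfkbia: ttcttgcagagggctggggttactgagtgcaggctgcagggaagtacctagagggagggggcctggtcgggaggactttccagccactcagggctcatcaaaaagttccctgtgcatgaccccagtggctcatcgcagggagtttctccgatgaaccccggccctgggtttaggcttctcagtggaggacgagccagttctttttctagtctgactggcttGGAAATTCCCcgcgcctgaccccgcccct
Traf3: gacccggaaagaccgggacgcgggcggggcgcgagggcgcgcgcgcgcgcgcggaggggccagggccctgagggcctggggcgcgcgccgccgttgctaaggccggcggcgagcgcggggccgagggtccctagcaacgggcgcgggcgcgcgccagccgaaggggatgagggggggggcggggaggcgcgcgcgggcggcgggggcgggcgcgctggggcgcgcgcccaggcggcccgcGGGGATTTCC
In Nfkbia the match spans the bases 29 to 20 before the start, with the consensus read on the opposite strand. In Traf3 it spans the bases 10 to 1 before the start, on the gene's own strand.

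The libraries held 35114426 to 54421330 counts. Mitochondrially encoded genes took 20.63% of the counts in KO replicate 1 and 7.22% to 9.2% in the other 5. Where a log2 fold change moved by over 1.5 times without KO replicate 1, both values are given. Markers of the labelled nucleus were present, but some were low: Sim1, a factor that specifies the nucleus, lay between 0.18 and 1.08 TPM (a deposited level corrected for gene length and library size). Avp, the vasopressin gene, lay between 13.4 and 158 TPM. Slc17a7, the vesicular glutamate transporter typical of cortex, lay between 341 and 745 TPM, against 18.2 to 72.7 TPM for Slc17a6, the one typical of hypothalamus, an order opposite to that typical of the labelled region. Regional markers did not lie evenly about 0 between genotypes: cortex and hippocampus markers lay above 0 in 11 of 11 (median log2 fold change 0.32), striatum markers in 9 of 9 (median 0.37) and paraventricular nucleus markers in 2 of 8 (median −0.34), with 0 called by edgeR or DESeq2. Without KO replicate 1 these medians were 0.35, 0.61 and −0.57, and 8 of the 11 cortex and hippocampus markers lay above 0. Thalamus markers lay above 0 in 4 of 6 (median 0.12), and in 0 of 6 without KO replicate 1 (median −0.40). Summed striatum markers stood at 2524, 1791 and 1026 TPM in the WT libraries, against 1551, 2097 and 2377 TPM in the KO libraries. Summed cortex and hippocampus markers stood at 497.1, 505.6 and 368.5 TPM, against 372.3, 505.3 and 501.4 TPM. Both sums were lowest in WT replicate F1, where that of the paraventricular nucleus markers was highest (352 TPM). The part of the regional markers, or of that library, in the results below was not tested. Adam17 itself stood at 17.1, 17.2 and 15.6 CPM (library-size-corrected counts with TMM scaling between libraries) in the WT libraries, against 15.4, 14.5 and 13.9 CPM in the KO libraries. Its KO values were all below its WT values, and the difference did not pass the test (log2 fold change −0.19, SE 0.11, edgeR adjusted p = 0.747). Adam17 overlaps the tested gene Iah1, so its count is uncertain to that extent. In bulk tissue, fewer cells of a type and less RNA per cell cannot be told apart.

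Compared per length, the genes kept a similar order across the libraries. Tnfrsf21 was the highest of the 10 in 6 of 6 libraries, Tnfrsf1b the 9th and Tnf the lowest in all 6. The median over the libraries was 62.8 TPM for Tnfrsf21, 23.4 TPM for Nfkbia and 22.0 TPM for Rela. It was 15.6 TPM for Tnfrsf1a and for Nfkb1, and 12.8 TPM for Traf3. Below these came Traf2 at 7.02 TPM, Ngfr at 5.48 TPM, Tnfrsf1b at 3.39 TPM and Tnf at 0.127 TPM. Nfkbia lay above Rela in 3 of 6 libraries and Tnfrsf1a above Nfkb1 in 3 of 6, so neither pair can be ordered beyond the spread, and Traf2 lay above Ngfr in 4 of 6. The ranges over the libraries were fully apart between Tnfrsf21 and Nfkbia, between Rela and Tnfrsf1a, and between Tnfrsf1b and Tnf. Nfkb1 lay above Traf3, Traf3 above Traf2 and Ngfr above Tnfrsf1b in 6 of 6 libraries, although their ranges overlapped.

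**Figure D1:**
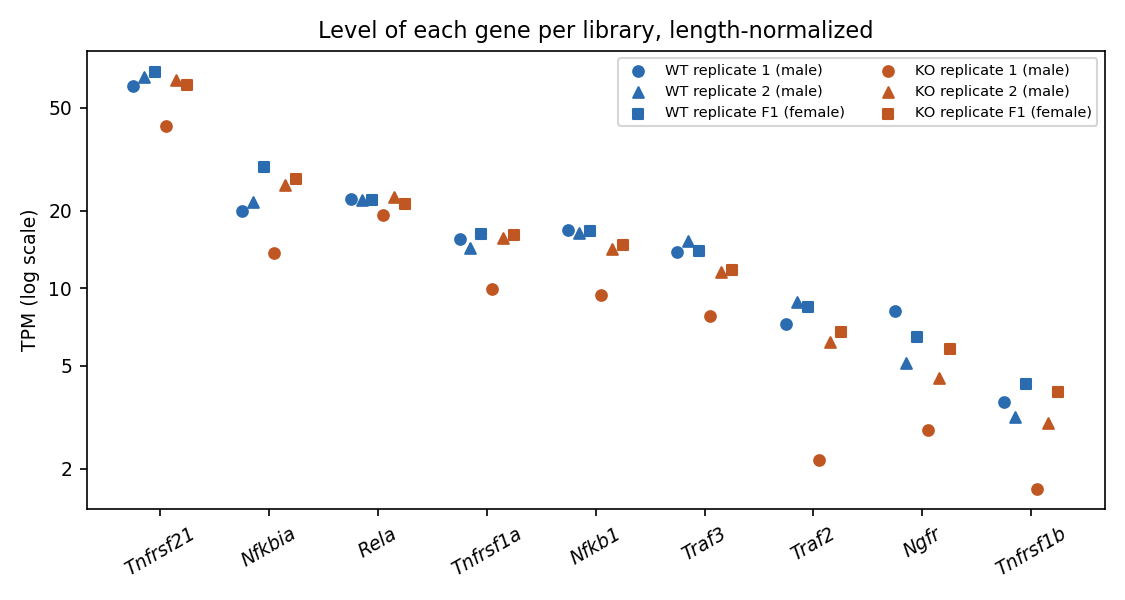
TPM (log scale) of 9 genes in each of the 6 libraries, ordered by median; blue is WT, orange is KO, and squares are the female libraries. Tnfrsf21 is highest at 42.6 to 69.1 TPM and Tnfrsf1b lowest at 1.68 to 4.24 TPM, and KO replicate 1 is the lowest library for all 9. Tnf, at 0 to 0.337 TPM, is left out.

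Loss of ADAM17 in glutamatergic neurons was accompanied by no called difference in these genes. Of the 10, 9 could be tested (Tnf had too few counts), and 0 passed at an edgeR adjusted p of 0.05. The background was 1 call in 18956 genes (0.00528%). None of the 9 had an unadjusted p under 0.05 either, against 6.38% of all genes, and DESeq2 called 0 of the 9 and 72 of all genes (0.38%). The log2 fold changes (KO minus WT) ran from −0.43 to 0.22, 4 above 0 and 5 below, with a median of −0.09. Over all genes tested the median was −0.004, and 49.4% lay above 0. The 95% confidence intervals all held 0, and the widest was that of Traf2, from −0.99 to 0.13. For 2 of the 9 (22.2%), Nfkb1 and Traf2, all KO libraries lay below all WT libraries by CPM. Over all genes, 13.9% had no overlap between the genotypes in either direction, 6.61% with KO above and 7.32% with KO below.

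**Figure D2:**
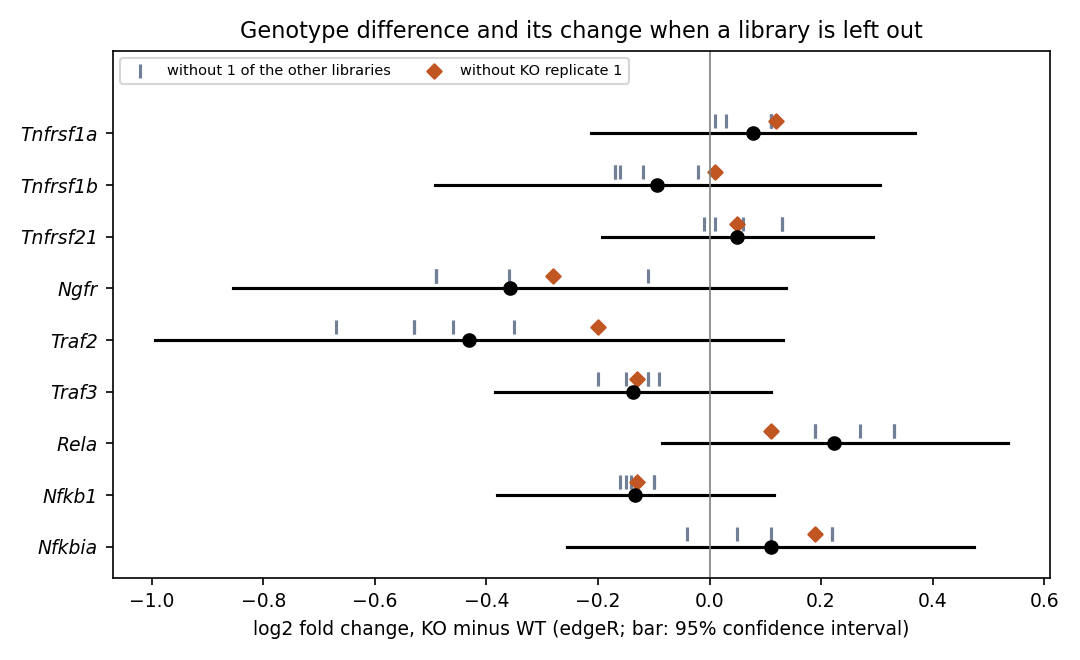
Log2 fold change (KO minus WT) of the 9 tested genes, with the 95% confidence interval as a bar; above each, the value when 1 library is left out, with an orange diamond for KO replicate 1. Every bar crosses 0, and the Traf2 value moves from −0.43 to −0.20 without KO replicate 1.

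The ligand was barely detected. Tnf (ENSMUSG00000024401, chromosome 17, 35199381 to 35202007, minus strand, GRCm38) had 11, 4 and 0 counts in the WT libraries, against 4, 6 and 2 counts in the KO libraries. These sum to 15 counts in WT and 12 in KO. The genotypes overlapped, and a count of 0 in WT replicate F1 allows up to 3 counts, or 0.0509 CPM, for counting error alone. The highest count, that of WT replicate 1, came in the library with the highest levels of 2 neutrophil genes. The summed level of 10 border macrophage and blood leukocyte markers was 192.5 TPM there, carried by S100a9 (114 TPM) and S100a8 (54.1 TPM), and between 9.79 and 38.4 TPM in the other libraries. Of the same list, Pf4 (4.53 TPM), Ly6c2 (10.2 TPM) and Cd79a (1.56 TPM) were also highest in WT replicate 1. The macrophage markers Mrc1 (2.48 TPM), Cd163 (1.82 TPM) and Lyve1 (0.824 TPM) and the leukocyte gene Ptprc (3.28 TPM) were not. The T-cell gene Cd3e was too low to test. The part of any of these markers in the Tnf count was not tested. Microglia markers summed to 605.7, 561.2 and 537.8 TPM in the WT libraries, against 291.5, 563 and 548 TPM in the KO libraries. The sum was lowest in KO replicate 1. By CPM, too, all of these markers but P2ry12, Sall1 and Itgam were lowest in that library. P2ry12 (34 CPM) and Sall1 (51 CPM) were highest there. Of the 14 microglia markers 5 had a log2 fold change above 0 (median −0.09), and without KO replicate 1 10 did (median 0.07). By edgeR 0 passed and by DESeq2 1 did, P2ry12, a purinergic receptor of microglia, which was higher in all KO libraries (log2 fold change 0.86, edgeR adjusted p = 0.735, DESeq2 adjusted p = 0.0135). Sall1, a factor of microglial identity, had a log2 fold change of 0.39 (edgeR adjusted p = 0.735). Among the 9 markers below 0, Aif1 was lower in all KO libraries (−0.245, edgeR adjusted p = 0.793, and −0.16 without KO replicate 1). Cx3cr1 stood at −0.30 (edgeR adjusted p = 0.772), and at −0.15 without KO replicate 1.

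The receptors spanned medians of 3.39 to 62.8 TPM, and none passed the test between genotypes. Tnfrsf1a encodes TNFR1, the widely expressed receptor with a death domain in its tail (ENSMUSG00000030341, chromosome 6, 125349362 to 125362484, plus strand). It stood at 13.8, 12.5 and 14.4 CPM in the WT libraries, against 13.2, 15.1 and 14.7 CPM in the KO libraries. The groups overlapped and all 6 libraries lay within 1.21-fold of each other. Its log2 fold change was 0.08 (SE 0.12, 95% confidence interval −0.21 to 0.37, edgeR adjusted p = 0.885), and 0.12 without KO replicate 1. Tnfrsf1b encodes TNFR2, which lacks a death domain and is found mainly on immune and endothelial cells (ENSMUSG00000028599, chromosome 4, 145213463 to 145246870, minus strand). It stood at 5.90, 5.18 and 5.88 CPM in the WT libraries, against 4.38, 5.43 and 6.13 CPM in the KO libraries. KO replicate 1 was the lowest library and KO replicate F1 the highest. Its log2 fold change of −0.09 (SE 0.17, interval −0.49 to 0.31, edgeR adjusted p = 0.899) became 0.01 without KO replicate 1.

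Tnfrsf21 encodes death receptor 6, a receptor linked to axon pruning and to myelinating cells (ENSMUSG00000023915, chromosome 17, 43016555 to 43089188, plus strand). It stood at 93.9, 102.5 and 105.6 CPM in the WT libraries, against 105.2, 110.2 and 97.5 CPM in the KO libraries. The groups overlapped, and with 3027 to 6221 counts a library it was the best measured of the genes. Its log2 fold change was 0.05 (SE 0.10, interval −0.19 to 0.29, edgeR adjusted p = 0.912). Ngfr encodes the p75 neurotrophin receptor, which binds neurotrophins and marks cholinergic neurons of the basal forebrain (ENSMUSG00000000120, chromosome 11, 95568818 to 95587735, minus strand). It stood at 12.02, 7.63 and 9.37 CPM in the WT libraries, against 6.64, 7.33 and 8.77 CPM in the KO libraries. WT replicate 1 was the highest, and WT replicate 2 lay within the KO range. Its log2 fold change was −0.36 (SE 0.21, interval −0.85 to 0.14, edgeR adjusted p = 0.747), and it was −0.11 without WT replicate 1.

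The course of Ngfr over the libraries was compared with those of 211 tested genes of the pathway and cell type lists. The closest was Lhx8, a transcription factor of basal forebrain cholinergic neurons, at 5.72, 3.27 and 4.21 CPM in the WT libraries, against 3.37, 3.78 and 4.17 CPM in the KO libraries. After each gene was centred on its own mean, the root mean square difference between the pair over the 6 libraries was 0.09 on the log2 scale, where Ngfr itself varied by 0.28 around its mean. Next came Cx3cr1, a chemokine receptor of microglia (0.13), and Frmd8, a partner of ADAM17 (0.14). Summed over 7 cholinergic markers, the level was 47.1, 32.9 and 31.6 TPM in the WT libraries, against 18.8, 26.7 and 36.9 TPM in the KO libraries. All 7 were measured well enough to test, all 7 had a log2 fold change below 0 (median −0.18), and 0 passed. Without KO replicate 1, 5 of the 7 lay below 0 (median −0.17). The choline transporter gene Slc5a7, was highest in KO replicate 1 (16.1 CPM), where Ngfr was lowest. Their part in the Ngfr values was not tested.

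Of the TRAF adaptors, Traf2 varied 2.17-fold in CPM from the lowest to the highest library and Traf3 1.27-fold, and neither passed the test. Traf2, which TNFR2 binds directly and TNFR1 binds through TRADD, lies on chromosome 2 (ENSMUSG00000026942, 25517982 to 25546940, minus strand). It stood at 8.22, 9.42 and 8.49 CPM in the WT libraries, against 4.34, 7.8 and 7.21 CPM in the KO libraries. No KO library reached any WT library, and KO replicate 1, with 125 counts, was the lowest of all. The log2 fold change was −0.43 (SE 0.23, edgeR adjusted p = 0.745), and −0.20 without KO replicate 1 (edgeR adjusted p = 0.675) or −0.67 without KO replicate 2 (edgeR adjusted p = 0.545). The gene of the lists closest to it was Tradd, the adaptor between TNFR1 and TRAF2, at 3.6, 4.45 and 3.87 CPM in the WT libraries, against 1.98, 3.98 and 4.0 CPM in the KO libraries. The root mean square difference of the pair was 0.11 on the centred log2 scale, where Traf2 varied by 0.36. Next came 2 microglia markers, Tmem119 (0.15) and C1qa (0.17). Traf2, Tradd, Tmem119 and C1qa were all lowest in the library with 20.63% mitochondrial counts, and the part of RNA quality in this was not tested.

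Traf3 holds down the alternative NF-kB pathway by keeping the kinase NIK low (ENSMUSG00000021277, chromosome 12, 111166370 to 111267153, plus strand). It stood at 34.2, 39.1 and 34.9 CPM in the WT libraries, against 33.4, 34.2 and 30.8 CPM in the KO libraries. WT replicate 1 and KO replicate 2 were nearly level by CPM, so the groups touched. By TPM all KO libraries (7.775, 11.59 and 11.77 TPM) lay below all WT libraries (13.76, 15.22 and 13.98 TPM). The log2 fold change was −0.14 (SE 0.10, interval −0.39 to 0.11, edgeR adjusted p = 0.784), and it lay between −0.20 and −0.09 when any 1 library was left out.

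**Figure D3:**
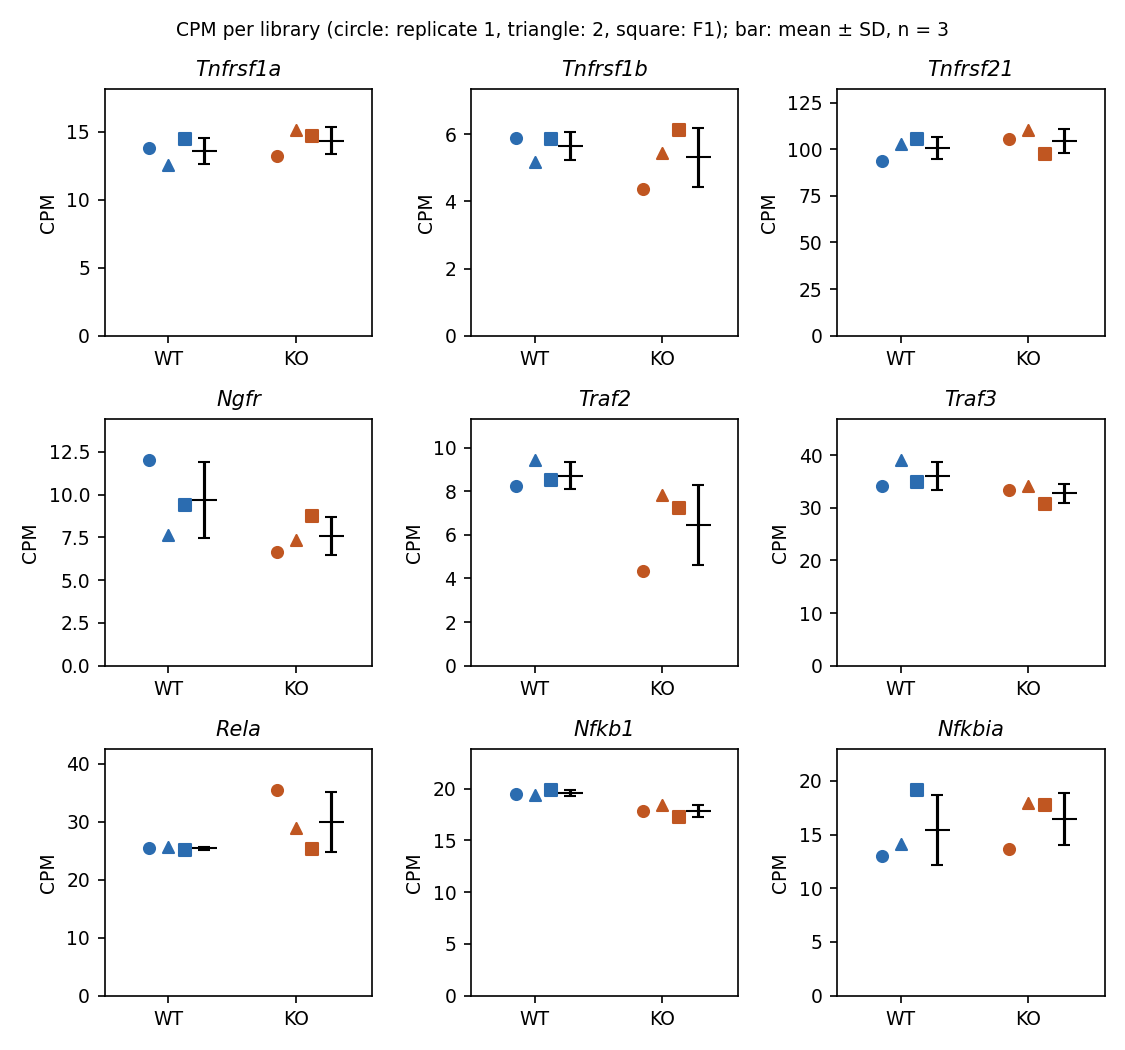
CPM of the 9 tested genes in each library, with axes from 0; circles, triangles and squares are replicates 1, 2 and F1, and black bars are the mean ± SD of 3 libraries. Nfkb1 and Traf2 are the genes whose KO points all lie below the WT points, and Rela has a KO replicate 1 point at 35.4 CPM above all others.

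Among the NF-kB subunits, Rela was highest in KO replicate 1 by CPM (and lowest there by TPM), and the CPM of Nfkb1 was below WT in all KO libraries; neither passed the test. Rela encodes the activating subunit RelA (ENSMUSG00000024927, chromosome 19, 5637483 to 5648130, plus strand). It stood at 25.5, 25.6 and 25.1 CPM in the WT libraries, against 35.4, 29.0 and 25.2 CPM in the KO libraries. The WT libraries varied little (SD 0.30 CPM, n = 3), and KO replicate F1 lay among them. Its log2 fold change was 0.22 (SE 0.13, interval −0.09 to 0.54, edgeR adjusted p = 0.747), 0.11 without KO replicate 1 and 0.33 without either female library. On library totals without scaling it was 0.05, and on log2(TPM + 1) −0.07.

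Nfkb1 encodes p105, the precursor of the DNA-binding subunit p50 (ENSMUSG00000028163, chromosome 3, 135584655 to 135691547, minus strand). It stood at 19.5, 19.4 and 19.9 CPM in the WT libraries, against 17.8, 18.5 and 17.3 CPM in the KO libraries. The mean was 19.6 ± 0.26 CPM over the WT libraries and 17.9 ± 0.59 CPM over the KO libraries (SD, n = 3 each), with no overlap. The log2 fold change of −0.13 (SE 0.10, interval −0.38 to 0.12) was not called, with an edgeR adjusted p of 0.788. It lay between −0.16 and −0.10 when any 1 library was left out.

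Nfkbia encodes IkB-alpha, which holds RelA and p50 in the cytoplasm and is itself induced by them (ENSMUSG00000021025, chromosome 12, 55489410 to 55492647, minus strand). Its promoter, printed above, holds a kappaB match close to the start. It stood at 13.1, 14.1 and 19.2 CPM in the WT libraries, against 13.6, 18.0 and 17.8 CPM in the KO libraries. The highest library was the WT female and the lowest a WT male, so the genotypes overlapped fully. Between genotypes the log2 fold change was 0.11 (SE 0.15, interval −0.26 to 0.48, edgeR adjusted p = 0.869). It was −0.04 without KO replicate 2, 0.19 without KO replicate 1 and 0.22 without either female library.

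Ratios of TPM values within a library need no scaling between libraries. They were chosen after the values had been seen, and 7 were computed. Nfkb1 stood to Rela at 0.763, 0.745 and 0.763 in the WT libraries, against 0.49, 0.626 and 0.693 in the KO libraries. All KO ratios lay below all WT ratios. The log2 difference was −0.34 (exact permutation test, two-sided, p = 0.1, the smallest that 3 against 3 libraries allow; adjusted over the 7 ratios, 0.42), and −0.20 without KO replicate 1. The inhibitor Nfkbia stood to Rela at 0.905, 0.976 and 1.34 in the WT libraries, against 0.714, 1.11 and 1.25 in the KO libraries. These overlapped (log2 difference −0.09, exact p = 0.9, adjusted 0.9), and the difference was 0.16 without KO replicate 1. Tnfrsf1b stood to Tnfrsf1a at between 0.168 and 0.261, and the genotypes overlapped (exact p = 0.3, adjusted 0.42). Traf2 stood to Traf3 at 0.279 in KO replicate 1 and between 0.528 and 0.604 in the other libraries. Its log2 difference of −0.37 (exact p = 0.3, adjusted 0.42) became −0.04 without that library. For the other 3 ratios the adjusted exact p lay between 0.42 and 0.583.

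**Figure D4:**
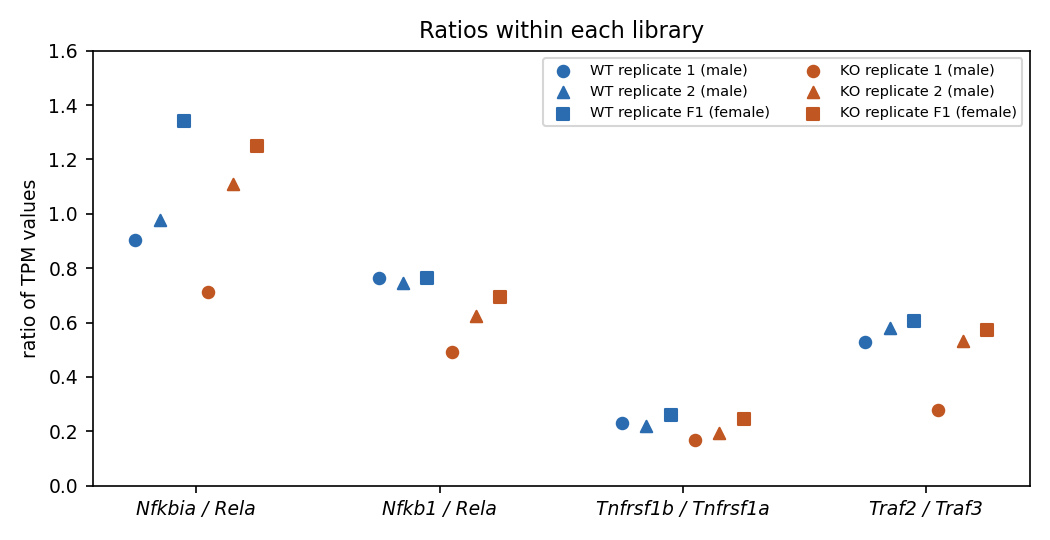
Ratios of TPM values within each library for 4 pairs of genes, with blue for WT and orange for KO. The ratio of Nfkb1 to Rela is 0.745 to 0.763 in WT and 0.49 to 0.693 in KO; the other 3 ratios overlap between the genotypes.

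Sex was compared in the same fit, with 2 female and 4 male libraries. In it 8 of 18956 genes (0.0422%) passed at an edgeR adjusted p of 0.05, and 0 of the 9 members did. At an unadjusted p under 0.05 there were 4.58% of all genes and again 0 members. Nfkbia had the smallest p of the members, higher in females by 0.34 on the log2 scale (SE 0.16, edgeR adjusted p = 0.941), which did not pass. Its female libraries stood at 19.2 and 17.8 CPM and its male libraries at 13.1, 14.1, 13.6 and 18.0 CPM, so the sexes overlapped. For genotype by sex, 14 genes (0.0739%) passed and 0 of the 9 members did, and at an unadjusted p under 0.05 there were 7.42% of all genes and 0 members. That test rests on 1 female library a genotype. Male and female differences between genotypes were −0.59 and −0.24 (log2) for Traf2, −0.45 and −0.09 for Ngfr, and 0.33 and 0.01 for Rela. They had opposite signs for Tnfrsf1b, Tnfrsf21 and Nfkbia, and the interaction did not pass for these 3 (edgeR adjusted p = 0.934, 0.898 and 0.906).

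The rest of the pathway was described from 9 lists. They hold 114 genes, of which 96 could be tested. By edgeR 0 passed in either direction, 5 of the 96 had an unadjusted p under 0.05 (6.38% of all genes did), and DESeq2 called 0 (0.38% of all genes). As many lay above 0 (48) as below (48), with a median of 0.01. In 16 of the 96 (16.7%) the genotypes did not overlap, 8 with KO above and 8 with KO below, beside 13.9% of all genes. Without KO replicate 1 the list medians lay between −0.18 and 0.11, and those of the adaptors (0.03 to −0.05) and of the target genes (−0.09 to 0.01) changed sign.

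**Figure D5:**
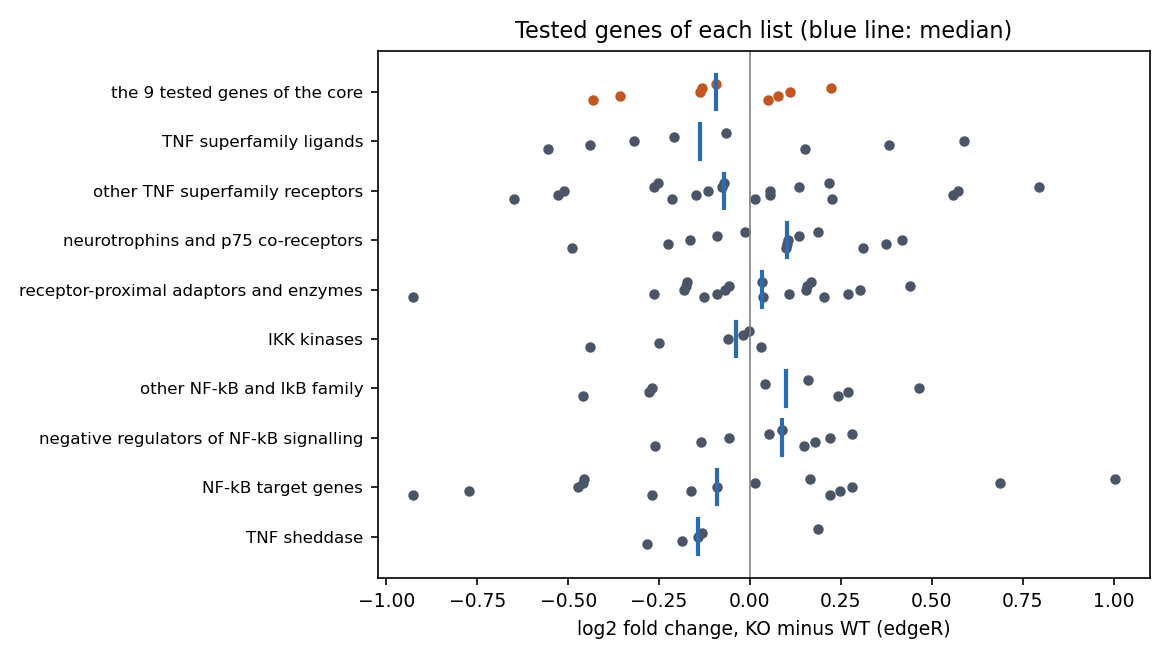
Log2 fold change (KO minus WT) of each tested gene in the 9 pathway lists and of the 9 tested genes of the core, 1 point a gene, with the list median as a blue line. List medians lie between −0.14 and 0.10, and single genes between −0.93 and 1.0.

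Other ligands of the TNF superfamily were scarce. Of 17, 1 reached a median of 10 TPM, Tnfsf12, which encodes TWEAK, at 11.6 TPM, and 4 reached 1 TPM. Tnfsf12 stood at 6.54 ± 1.21 CPM in the WT mean and 8.62 ± 2.84 CPM in the KO mean (SD, n = 3 each), with KO replicate 1 at 11.8 CPM. A log2 fold change of 0.38 became 0.09 without that library, and it overlaps other tested genes. Tnfsf13b, which encodes the B-cell factor BAFF, stood at 1.13 ± 0.11 and 1.80 ± 0.94 CPM, and its log2 fold change of 0.59 was 0.19 without KO replicate 1. Of 8 tested ligands 3 lay above 0 and 5 below (median −0.14), and 0 passed. Of 21 other receptors 13 reached a median of 1 TPM, led by Tnfrsf19, also called TROY, at 32.1 TPM, Relt at 18.5 TPM and Ltbr, the lymphotoxin receptor, at 10.3 TPM. Of 19 tested receptors 9 lay above 0 and 10 below (median −0.07), and 0 passed. Fas, the death receptor of FAS ligand, stood at 0.817, 0.777 and 1.48 CPM in the WT libraries, against 1.08, 1.48 and 1.91 CPM in the KO libraries, so its groups overlapped. Tnfrsf14 stood at 0.853 ± 0.074 CPM in the WT mean and 0.547 ± 0.12 CPM in the KO mean (log2 fold change −0.65, SE 0.30, edgeR adjusted p = 0.735), with all KO libraries below.

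Around Ngfr, the list of neurotrophins and partners of p75 had 8 of 13 members above 0 (median 0.10), and 0 passed. Lingo1, a co-receptor of p75 in the control of axon growth, stood at 307, 356 and 264 CPM in the WT libraries, against 403, 465 and 336 CPM in the KO libraries. KO replicate F1 lay below WT replicate 2 (log2 fold change 0.37, SE 0.11, edgeR adjusted p = 0.735).

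Adaptors next to the receptors had 10 of 19 members above 0 (median 0.03), and 0 passed. Traf1, an adaptor induced by NF-kB, stood at 1.15, 1.34 and 1.72 CPM in the WT libraries, against 0.869, 0.626 and 0.711 CPM in the KO libraries. All KO values were lower, on 25 to 101 counts a library (log2 fold change −0.93, SE 0.28, edgeR adjusted p = 0.735). Birc2, the ubiquitin ligase cIAP1, stood at 27.2 ± 0.97 and 24.1 ± 2.36 CPM in WT and KO. Of 6 genes of the IKK kinases, their regulatory subunit and the upstream kinase NIK, 1 lay above 0 and 5 below (median −0.04), and 0 passed. Chuk, which encodes IKK-alpha, stood at 23.2, 23.5 and 23.0 CPM in the WT libraries, against 20.9, 15.9 and 21.9 CPM in the KO libraries, with no overlap (log2 fold change −0.25, SE 0.14, edgeR adjusted p = 0.745). Ikbke stood at 1.38 ± 0.27 and 1.01 ± 0.17 CPM.

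The remaining NF-kB and IkB genes lay on both sides of 0, with 5 of 8 above (median 0.10) and 0 past the threshold. In 4 of the 8 the genotypes did not overlap, 2 in each direction, beside 13.9% of all genes. Nfkb2, which encodes the precursor of p52, stood at 3.62, 3.82 and 4.89 CPM in the WT libraries, against 2.36, 3.37 and 3.14 CPM in the KO libraries (log2 fold change −0.46, SE 0.21, edgeR adjusted p = 0.735). Nfkbib, which encodes IkB-beta, stood at 25, 25.8 and 22.4 CPM in the WT libraries, against 27.3, 31.9 and 27.3 CPM in the KO libraries (0.24, SE 0.11, edgeR adjusted p = 0.735). Nfkb2 and Nfkbib overlap other tested genes, so their counts are uncertain to that extent. Negative regulators had 6 of 9 members above 0 (median 0.09), and 0 passed. Tnip1, a partner of the deubiquitinase A20, stood at 33.4 ± 5.59 and 40.6 ± 8.15 CPM, and Tnip2 at 9.70 ± 0.86 and 8.10 ± 0.30 CPM in WT and KO.

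Of 22 known NF-kB target genes 15 could be tested, 7 above 0 and 8 below (median −0.09), and 0 passed in edgeR or DESeq2. An unadjusted p under 0.05 was found in 4, beside 6.38% of all genes: Ptgs2, Bcl2l1 and Tnip1 above 0 and Traf1 below. The genotypes did not overlap in 5 of the 15 (33.3%), 3 with KO above and 2 with KO below, beside 13.9% of all genes. Ptgs2, the inducible cyclooxygenase, stood at 10.2, 11.0 and 9.71 CPM in the WT libraries, against 20.3, 18.4 and 12.1 CPM in the KO libraries. All KO values were higher (log2 fold change 0.69, SE 0.16, edgeR unadjusted p = 0.00352, edgeR adjusted p = 0.735). By DESeq2 its adjusted p was 0.051, which did not pass either. Neurons also raise Ptgs2 with activity, and the part of activity or of NF-kB in these values was not tested. Bcl2l1, which encodes the survival protein BCL-XL, stood at 33.3, 80.1 and 35.4 CPM in the WT libraries, against 105, 96.5 and 90.4 CPM in the KO libraries (log2 fold change 1.0, SE 0.33, edgeR adjusted p = 0.735). Il6, with 0 to 11 counts a library, and Cxcl2, with 0 to 4, were too low to test. Of the 5 genes of the TNF sheddase and its partners, 1 lay above 0 and 4 below (median −0.14), and 0 passed. Frmd8, which stabilises ADAM17 at the cell surface, stood at 24.6, 21.9 and 22.4 CPM in the WT libraries, against 16.2, 19.0 and 21.8 CPM in the KO libraries (edgeR adjusted p = 0.735). The difference on the log2 scale was −0.28 (SE 0.13) with all libraries and −0.18 without KO replicate 1.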

How the data were processed

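Libraries were made with an mRNA kit from total RNA, per the labels' protocols. The submitters' processing notes list FastQC 0.11.2, Trimmomatic 0.36 and bedtools 2.26.0. What aligned and counted the reads, the strand setting and the build: not given in the sources used here. Per the file headers, the authors deposited whole-number counts, TPM values and FPKM values for each gene and library. FPKM is proportional to TPM in each library and was only checked. Of the gene identifiers 99.6% matched GENCODE M21 (GRCm38), 94.2% of these with the same coordinates, so coordinates are read as GRCm38.

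Counts were tested with edgeR 4.0.16 in R 4.3.3: filterByExpr by genotype (18956 genes), TMM scaling, robust quasi-likelihood fits with genotype and sex, and Benjamini-Hochberg adjustment over all genes (threshold 0.05). The test was run on simulated data first. TPM values compare genes within a library. TMM factors ran from 0.82 (KO replicate 1) to 1.08. The SE of a log2 fold change is its size over the square root of F.

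All 10 genes are named. Of each other list, the 2 tested genes with the smallest p are named, since none passed; 1 gene under this rule is not reported here. Closest genes are given for the 2 members with the widest range. Adam17, nucleus markers and glutamate transporters check the labels. Genes, lists and most alternatives were chosen with earlier results of these data known; the TPM ratios and any gene outside the rule were picked with their values in view. The alternatives tried were other scalings, filters, models (DESeq2 1.42.0, limma 3.58.1), terms and libraries left out. A replicate number does not mark a shared animal, and the labels do not say whether it marks a shared day. Same-numbered libraries did not deviate together (correlations across genes −0.04, 0.02 and 0.02 for replicates 1, 2 and F1).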

Additional observations from a re-analysis of the deposited data

How the results depend on the processing

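Of 153 values of the 9 tested genes under 17 alternatives, 0 passed the threshold and 142 kept their direction. The direction turned in 11, of Tnfrsf1a, Tnfrsf1b, Tnfrsf21, Nfkbia and Rela. On library totals without scaling, Tnfrsf1a stood at −0.08, Tnfrsf21 at −0.11 and Nfkbia at −0.04, and on log2(TPM + 1) these stood at −0.16, −0.24 and −0.15 and Rela at −0.07. The cause was not tested. Leaving out 1 library gave −0.01 to 0.13 for Tnfrsf21, −0.17 to 0.01 for Tnfrsf1b and −0.04 to 0.22 for Nfkbia. Without WT replicate F1 and KO replicate 1, and with no sex term, Tnfrsf1b stood at 0.06 and Nfkbia at 0.40 (edgeR adjusted p = 0.602). The median of the 9 was −0.09, −0.25 on library totals, −0.30 on log2(TPM + 1), 0.01 without KO replicate 1 and 0.06 without WT replicate F1 and KO replicate 1.

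The number of called genes among all genes was 1 as reported. It was 4 with no filter on low counts, 72 with DESeq2, 4 with limma-voom and quality weights, 3 with no sex term, 4 on log2(TPM + 1), 0 to 17 with 1 library left out and 23 without WT replicate F1 and KO replicate 1. With the replicate number as a block (paired analysis) it was 0, the Traf2 log2 fold change was −0.47 (edgeR adjusted p = 0.837) and no member passed. The genotype by sex interaction had 237 calls with DESeq2 against 14 with edgeR, and 0 members in both. The 9 tested genes had 125 to 6221 counts a library, and Tnf, at 0 to 11, was too low to test.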
